A study of Mus musculus with 6 samples.

Results

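The comparison described here sets macrophages given the deacetylase inhibitor trichostatin A (TSA), the LXR agonist GW3965 and lipopolysaccharide (LPS) against macrophages given TSA and LPS without the agonist. It rests on 2 of the study's 6 arrays, 1 per side, and covers all 8841 genes with a named probe. Of these, 4682 genes were measured, meaning that the brighter of both arrays was at or above that array's median. The 6 groups are TSA + GW3965 + LPS, TSA + LPS, GW3965 + LPS, LPS, TSA and No treatment, with 1 single-colour array each. All are thioglycollate-elicited macrophages of 6-week-old female C57BL/6 mice, that is, primary cells drawn into the peritoneum by an irritant. The labels used here give no dose, time, vehicle or number of animals, and there was no array with GW3965 alone.

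LXRs are nuclear receptors that bind DNA together with RXR and are switched on by oxidised forms of cholesterol. In macrophages they are known for turning on genes of cholesterol export and fatty acid synthesis, and for holding down a part of the genes that LPS induces through Toll-like receptor 4. Corepressor complexes, some of which contain histone deacetylases, are known to take part in gene silencing by nuclear receptors. TSA inhibits histone deacetylases, so the pair addresses what an LXR agonist does to LPS-treated macrophages while these enzymes are inhibited.

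Levels are the authors' scaled intensities, with array medians of 0.981 to 0.987, and they can be compared between arrays for 1 gene but not between genes. Values under an array's 25th percentile (0.198 to 0.245) were raised to it before any ratio was taken. The 6 arrays correlated with rank coefficients of 0.847 to 0.982 over 5080 genes, and both arrays of the pair with 0.973. The labelled cell type was checked against its markers, and all 10 macrophage markers on the array were above the floor on every array, with summed levels of 1090 in TSA + GW3965 + LPS and 1408 in TSA + LPS. Neutrophil markers summed to 75.0 in TSA + GW3965 + LPS and 83.6 in TSA + LPS (9 on the array, Mpo at the floor on both). T and NK cell markers summed to 34.2 and 46.9 in the same order (13 on the array, with Cd3e, Cd8a, Zap70 and Nkg7 at the floor on both). B cell markers summed to 12.9 and 13.5 (7 on the array, Blk at the floor), mast cell, basophil and eosinophil markers to 22.7 and 24.8 (10, Kit and Mcpt8 at the floor), dendritic cell markers to 11.7 and 11.1 (3, Ccr7 at the floor) and fibroblast and mesothelial markers to 17.1 and 16.2 (11, with Col1a1, Lum, Msln, Wt1, Pecam1 and Cdh5 at the floor), always in the same order. Levels of different genes are not on the same scale, so the sums follow their brightest members. In TSA + GW3965 + LPS and TSA + LPS, Lyz2 of the macrophage markers had 795 and 1050. The neutrophil marker S100a8 had 71.2 and 78.8, and Gzma of the T and NK cell markers 28.8 and 39.6. Being above the floor means only being above the array's 25th percentile. The part of other cell types in the differences given next was not tested.

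Adding GW3965 to TSA and LPS was accompanied by more genes at higher than at lower levels. Of the 4682 measured genes, 82 were at least 2-fold higher (1.75%) and 27 at least 2-fold lower (0.577%) in TSA + GW3965 + LPS than in TSA + LPS. At 1.5-fold the counts were 517 higher (11.0%) and 271 lower (5.79%), and the median log2 difference over all measured genes was 0.04. In the pair without TSA the balance was turned round, with 22 of 4622 measured genes at least 2-fold higher (0.476%) and 58 at least 2-fold lower (1.25%) in GW3965 + LPS than in LPS. The median log2 difference over all measured genes of that pair was -0.02. With 1 array per side these counts have no replicate check and carry no p-value, and fewer RNA molecules per cell cannot be told apart from fewer cells of a kind.

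The genes past 2-fold were mostly those in which the TSA + LPS array stood apart. Among the 82 higher genes, TSA + LPS was the lowest of all 6 arrays in 58, and TSA + GW3965 + LPS was the highest of all 6 in 37. Among the 27 lower genes, TSA + GW3965 + LPS was the lowest of all 6 arrays in 6, and TSA + LPS the highest of all 6 in 21. Choosing genes by a gap between these 2 arrays itself favours such extremes. Against the median of the other 4 arrays, TSA + LPS was the farther of the pair in 57 of the 82 and 25 of the 27. TSA + GW3965 + LPS was the farther in 25 and 2. The pair cannot be given without the TSA + LPS array, so values of the pair GW3965 + LPS and LPS, which shares no array with it, are given beside its results.

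**Figure D1:**
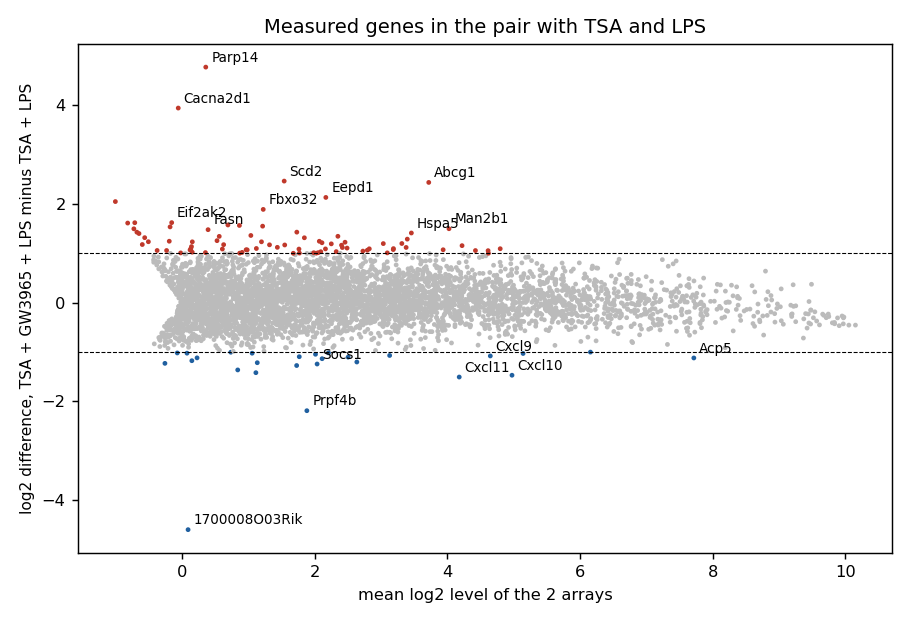
The log2 difference of each measured gene between TSA + GW3965 + LPS and TSA + LPS (vertical axis) is plotted against its mean log2 level on both arrays (horizontal axis), with 1 point per gene. Dashed lines mark 2-fold; 82 genes lie at or above the upper line (red) and 27 at or below the lower one (blue), with Parp14, Cacna2d1 and 1700008O03Rik farthest out.

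Behind Parp14 and Cacna2d1, the highest genes with the agonist in the presence of TSA were genes of fatty acid desaturation and cholesterol export: Scd2, Abcg1 and Eepd1. Abcg1, which moves cholesterol out of macrophages to high-density lipoprotein, had a level of 30.6 in TSA + GW3965 + LPS, against 5.66 in TSA + LPS. In the pair without TSA it had 31.1 in GW3965 + LPS, against 10.8 in LPS, and it had 13.2 in TSA and 20.0 in No treatment. Both arrays with the agonist thus lay above all 4 arrays without it, by 5.41-fold within the pair with TSA and 2.89-fold within the pair without TSA.

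Scd2, a stearoyl-CoA desaturase that makes monounsaturated fatty acids, had a level of 6.83 in TSA + GW3965 + LPS, against 1.24 in TSA + LPS. It had 8.47 in GW3965 + LPS, against 1.98 in LPS, with 2.35 in TSA and 6.60 in No treatment. Eepd1, a membrane-linked protein known to promote cholesterol efflux from macrophages, had 9.41 in TSA + GW3965 + LPS, against 2.15 in TSA + LPS. It had 10.4 in GW3965 + LPS, against 2.66 in LPS, with 8.87 in TSA and 9.08 in No treatment. In both genes the 2 arrays with LPS and no agonist were the lowest of all 6 and the 2 with the agonist the highest.

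These 3 genes were also the ones that rose in the model over all 6 arrays. limma's moderated test of the GW3965 term, which is the mean of both pairs, was fitted on 5080 genes with LPS and TSA as additive terms. A gene's own spread came from what those terms left over (2 residual degrees of freedom). It was combined with a spread pooled over genes (a prior of 16.9 degrees of freedom). The test thus rests mostly on the pooled spread and little on the residual of the gene itself. It called 3 genes up (0.0591%) and 1 gene down (0.0197%; 0.0787% either way) at an adjusted p under 0.05, with 140 genes (2.76%) at an unadjusted p under 0.05. Scd2 rose by 2.28 ± 0.29 on the log2 scale (SE; Benjamini-Hochberg adjusted p = 0.000658 in limma), Eepd1 by 2.05 ± 0.26 (adjusted p = 0.000658 in limma) and Abcg1 by 1.98 ± 0.27 (adjusted p = 0.00105 in limma). All 3 calls were lost with the floor at the array median (adjusted p = 0.557 in limma for each). Abcg1 was also lost without the TSA + GW3965 + LPS array, with an estimate of 1.61 and an adjusted p of 0.105 in limma, over a range of 2.96e-11 to 0.557 across all alternatives.

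Further genes of lipid handling had higher levels in both pairs without passing the test. Fasn, the fatty acid synthase, had 2.19 in TSA + GW3965 + LPS, against 0.787 in TSA + LPS, and 5.95 in GW3965 + LPS, against 2.57 in LPS (adjusted p = 0.0863 in limma). A second and dimmer Fasn probe read 0.348 in TSA + GW3965 + LPS, against 0.458 in TSA + LPS, so the 2.79-fold difference is that of the brighter probe. Acsl3, which activates long-chain fatty acids by linking them to coenzyme A, had 13.0 in TSA + GW3965 + LPS, against 6.73 in TSA + LPS, and 14.5 in GW3965 + LPS, against 5.76 in LPS (adjusted p = 0.153 in limma). Tmem86a, a lysoplasmalogenase, had 6.53 in TSA + GW3965 + LPS, against 3.07 in TSA + LPS, and 5.99 in GW3965 + LPS, against 3.04 in LPS. Its levels of 11.6 in TSA and 18.9 in No treatment were above both, so the agonist arrays did not reach the levels without LPS. Cfap126, a protein of cilia, was 2.90-fold higher in the pair with TSA and 3.35-fold higher in the pair without it (adjusted p = 0.0863 in limma).

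As a group, 16 of the 24 listed LXR target genes on the array were measured in the pair. The list covers cholesterol export and other functions. Of these, 4 were at least 1.5-fold higher in TSA + GW3965 + LPS than in TSA + LPS (11.0% of all measured genes were) and 0 lower (5.79%), with a median log2 difference of 0.38 against 0.04 over all measured genes. Without TSA, 4 of 17 were at least 1.5-fold higher in GW3965 + LPS than in LPS (2.83% of all measured genes were). Another 2 were lower (7.18%), and the median was 0.14. Abcg1 was the only cholesterol exporter among the 4 higher in the pair with TSA. The others were the drug and lipid transporter Abcc1 (1.73-fold), the mitochondrial arginase Arg2 (1.67-fold) and the secreted protein Cd5l (1.63-fold). On the log2 scale these others differed by -0.12 (Abcc1), 1.04 (Arg2) and 0.34 (Cd5l) in GW3965 + LPS minus LPS. In limma 1 of 17 fitted members, Abcg1, rose and 0 fell. Apoe, the apolipoprotein that carries exported cholesterol, had 132 in TSA + GW3965 + LPS, against 102 in TSA + LPS, and 152 in GW3965 + LPS, against 147 in LPS. Nr1h3, which encodes LXR alpha, ran opposite ways: it had 4.90 in TSA + GW3965 + LPS, against 3.48 in TSA + LPS, and 10.3 in GW3965 + LPS, against 16.5 in LPS. The phospholipid transfer protein Pltp had 37.4 in TSA + GW3965 + LPS, against 44.7 in TSA + LPS, and 50.5 in GW3965 + LPS, against 45.9 in LPS. Abca1, the other main cholesterol exporter, was below the median of both arrays (0.727 in TSA + GW3965 + LPS and 0.349 in TSA + LPS) and Srebf1 was under the floor on all 6, so neither counts as measured.

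Of 15 measured genes of fatty acid synthesis and desaturation, 6 were at least 1.5-fold higher in TSA + GW3965 + LPS than in TSA + LPS (11.0% of all measured genes were) and 2 at least 1.5-fold lower (5.79%), with a median log2 difference of 0.50. Without TSA, 3 of 16 were at least 1.5-fold higher and 2 lower, against 2.83% and 7.18% of all measured genes, with a median of 0.25. In limma 1 of 17 fitted members, Scd2, rose and 0 fell. The desaturase Scd1 ran the other way from Scd2: it had 1.12 in TSA + GW3965 + LPS, against 2.87 in TSA + LPS. On the other 4 arrays Scd1 lay between 0.941 and 1.23, so the TSA + LPS array alone was high. Of 10 measured genes of cholesterol synthesis and uptake, 0 were at least 1.5-fold higher and 1, Ch25h, was lower, near the shares of 11.0% and 5.79% over all measured genes, with a median of -0.07 and of -0.13 over 11 members in the pair without TSA.

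Promoter windows of 300 bases (250 before to 50 after the start site, RefSeq, GRCm38.p6) were searched for the direct repeat bound by LXR with RXR. The motif was the half-site AGGTCA repeated after 4 bases of any kind, on either strand, with at most 1 mismatch in each half-site. Of 59 named genes searched, 44 had a window and 1 gene, Acsl3, held a match. The repeat was in 1.75% of all windows and in 2.02% of all genes with a window. The Acsl3 window, chr1:78657575-78657874 on the plus strand, is shown because it is the single match among the genes higher with the agonist; capitals mark the repeat, which lies on the minus strand and starts at base -112 from the start site.
Acsl3: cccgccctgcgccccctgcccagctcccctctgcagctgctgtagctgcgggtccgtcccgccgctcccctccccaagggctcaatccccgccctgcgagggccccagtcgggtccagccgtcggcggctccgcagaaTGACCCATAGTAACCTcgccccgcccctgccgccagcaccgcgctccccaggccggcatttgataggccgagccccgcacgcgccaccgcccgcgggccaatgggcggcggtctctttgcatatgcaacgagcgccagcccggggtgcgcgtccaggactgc
A match describes these letters only; the window of Eepd1 held none, and Abcg1 and Scd2 had no window in the table. A sterol response element (TCAC, 1 base of any kind, CCAC, either strand) was found in 0 of the 44 genes. It was present in 1.24% of all windows and 1.44% of all genes with a window.

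**Figure D2:**
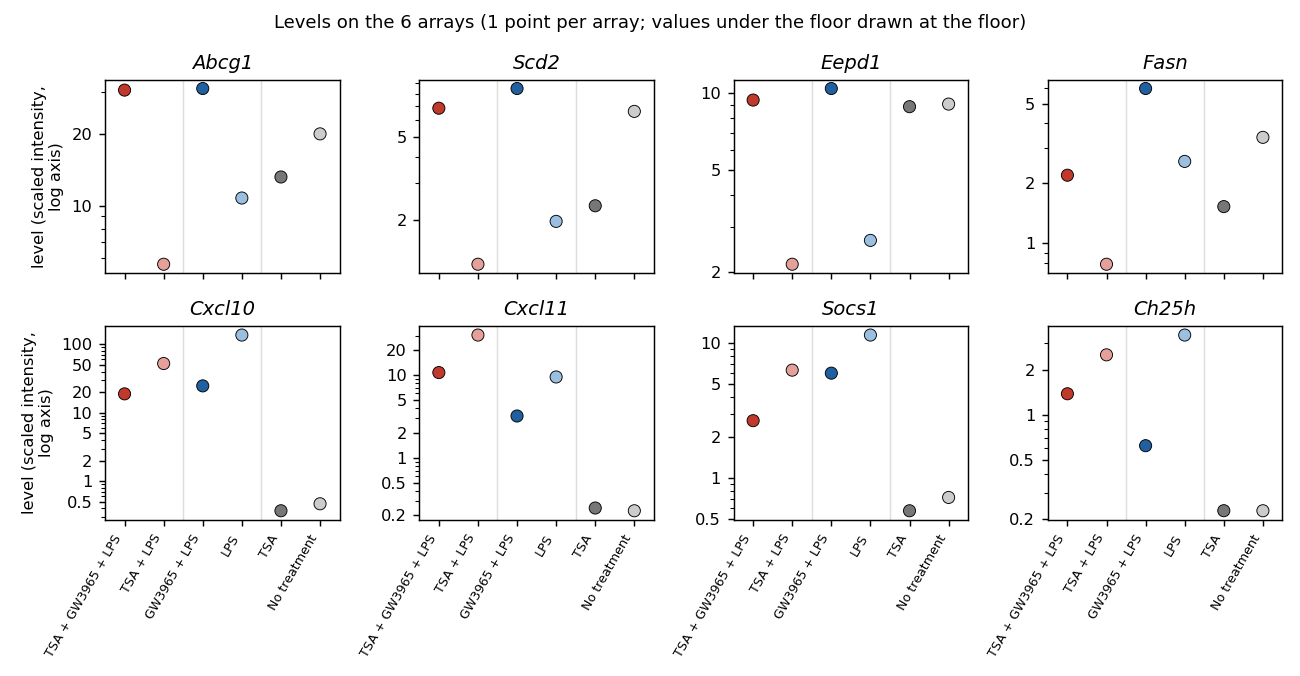
Levels of 8 genes on the 6 arrays are plotted as scaled intensity on log axes, with 1 point per array and values under the floor drawn at the floor. In the upper row (Abcg1, Scd2, Eepd1, Fasn) each agonist array lies above its own LPS-treated array without the agonist, and in the lower row (Cxcl10, Cxcl11, Socs1, Ch25h) each lies below it.

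Behind 1700008O03Rik and Prpf4b, the lowest genes with the agonist in the presence of TSA were the chemokines Cxcl11 and Cxcl10. Cxcl10, an interferon-induced chemokine that draws T cells, had 18.9 in TSA + GW3965 + LPS, against 52.4 in TSA + LPS. It had 24.7 in GW3965 + LPS, against 137 in LPS, and stayed at 0.370 in TSA and 0.467 in No treatment. It was the only gene that fell in the model over all 6 arrays, by 1.97 ± 0.29 on the log2 scale (SE; Benjamini-Hochberg adjusted p = 0.00194 in limma). This call was lost with the floor at the array median (adjusted p = 0.557 in limma). Cxcl11, a chemokine for the same receptor, had 10.7 in TSA + GW3965 + LPS, against 30.5 in TSA + LPS, and 3.20 in GW3965 + LPS, against 9.49 in LPS (adjusted p = 0.137 in limma).

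Other induced genes shared the direction in both pairs without passing the test. Socs1, a feedback inhibitor of cytokine signalling, had 2.67 in TSA + GW3965 + LPS, against 6.32 in TSA + LPS, and 6.00 in GW3965 + LPS, against 11.5 in LPS. Ch25h, which makes the LXR ligand 25-hydroxycholesterol, had 1.38 in TSA + GW3965 + LPS, against 2.51 in TSA + LPS, and 0.620 in GW3965 + LPS, against 3.40 in LPS (adjusted p = 0.153 in limma). Nos2, the inducible nitric oxide synthase, had 2.33 in TSA + GW3965 + LPS, against 4.98 in TSA + LPS, and 3.15 in GW3965 + LPS, against 5.17 in LPS. Each of these genes was lower on the agonist array within both pairs.

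Of 27 measured cytokines and chemokines, 8 were at least 1.5-fold lower in TSA + GW3965 + LPS than in TSA + LPS (5.79% of all measured genes were) and 1 at least 1.5-fold higher (11.0%). Below 0 lay 21 of 27, as did 2178 of all 4682 measured genes. The median log2 difference was -0.31, against 0.04 over all measured genes and -0.42 for the 28 members measured in the pair without TSA. In limma 1 of 28 fitted members, Cxcl10, fell and 0 rose. Among the 8 was the monocyte chemoattractant Ccl2, with 347 in TSA + GW3965 + LPS, against 547 in TSA + LPS, and 281 in GW3965 + LPS, against 412 in LPS. The inflammatory cytokine Il6 was another, with 31.5 in TSA + GW3965 + LPS, against 52.9 in TSA + LPS, and 126 in GW3965 + LPS, against 179.9 in LPS. The T cell chemokine Ccl17 was 2.33-fold lower in the pair with TSA (1.44 in TSA + GW3965 + LPS, against 3.35 in TSA + LPS) but had 2.71 in GW3965 + LPS, against 2.62 in LPS. Of other inflammatory cytokines, Il1b had 576 in TSA + GW3965 + LPS, against 475 in TSA + LPS, and 748 in GW3965 + LPS, against 674 in LPS. Tnf had 33.6 in TSA + GW3965 + LPS, against 26.1 in TSA + LPS, but 52.5 in GW3965 + LPS, against 77.3 in LPS. Il1a was the 1 member at least 1.5-fold higher in the pair with TSA, and it differed by -0.23 on the log2 scale in the pair without TSA.

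Promoter windows of the genes down in both pairs were searched for an interferon response core (GAAA, 2 bases of any kind, GAAA) and an NF-kB pattern (GGGA, 3 bases of any kind, TCC), on both strands; these motifs were chosen after the values were seen. Of the 10 genes with the largest smaller change, 7 had a window, and 4 of these (Cxcl10, Socs1, Tgtp1 and Slc25a22) held the interferon core. It was in 3.44% of all windows and 3.99% of all genes with a window. The Cxcl10 window (chr5:92348840-92349139, minus strand) and the Socs1 window (chr16:10785487-10785786, minus strand) are shown for the interferon core in capitals, at base -213 in Cxcl10 and at bases -83 and -77, with overlap, in Socs1.
Cxcl10: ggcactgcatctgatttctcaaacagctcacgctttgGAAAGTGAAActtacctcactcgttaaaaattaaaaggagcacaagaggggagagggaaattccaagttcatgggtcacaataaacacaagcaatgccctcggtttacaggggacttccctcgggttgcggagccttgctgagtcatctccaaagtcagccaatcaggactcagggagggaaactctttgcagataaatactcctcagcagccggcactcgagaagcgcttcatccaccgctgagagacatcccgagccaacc
Socs1: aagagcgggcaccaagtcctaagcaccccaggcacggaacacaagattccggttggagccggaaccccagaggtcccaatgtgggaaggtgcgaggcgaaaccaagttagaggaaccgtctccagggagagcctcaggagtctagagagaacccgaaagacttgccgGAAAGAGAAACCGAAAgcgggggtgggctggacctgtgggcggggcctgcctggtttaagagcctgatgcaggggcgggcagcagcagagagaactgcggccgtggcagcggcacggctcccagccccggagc
Cxcl10 alone of the 7 also held the NF-kB pattern, GGGAAATTCC at base -159, against 4.59% of all windows and 5.21% of all genes with a window. Among the other named genes with a window, Tcl1b3 and Eif2ak2 held the interferon core and Il6 the NF-kB pattern.

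Interferon-stimulated genes lay on both sides of 0 in the pair with TSA and below 0 in the pair without it. Of 41 measured members, 5 were at least 1.5-fold higher and 3 at least 1.5-fold lower in TSA + GW3965 + LPS than in TSA + LPS, near the 11.0% and 5.79% of all measured genes, 18 lay above 0 and 23 below, and the median log2 difference was -0.04. In the pair without TSA, 27 of 40 measured members were at least 1.5-fold lower in GW3965 + LPS than in LPS (7.18% of all measured genes were). There 40 of 40 lay below 0, and the median was -0.78, against -0.02 over all measured genes. In limma 0 of 41 members passed for the mean of both pairs, with 8 at an unadjusted p under 0.05, and 1, Parp14, passed for the term that lets the GW3965 effect depend on TSA. That term called 3 of all 5080 genes (0.0591%), with 141 (2.78%) at an unadjusted p under 0.05.

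The members with the widest gap between the pairs were Parp14 and Eif2ak2. Parp14, a poly(ADP-ribose) polymerase family member, had 6.70 in TSA + GW3965 + LPS and was under the floor, at 0.0878, in TSA + LPS, so it was at least 27.4-fold higher. It had 1.10 in GW3965 + LPS, against 7.83 in LPS. Eif2ak2, the RNA-activated kinase PKR, had 1.57 in TSA + GW3965 + LPS, against 0.512 in TSA + LPS, and 1.65 in GW3965 + LPS, against 3.43 in LPS. Both agonist arrays had like levels of Eif2ak2, and the 2 arrays with LPS and no agonist lay on either side of them.

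**Figure D3:**
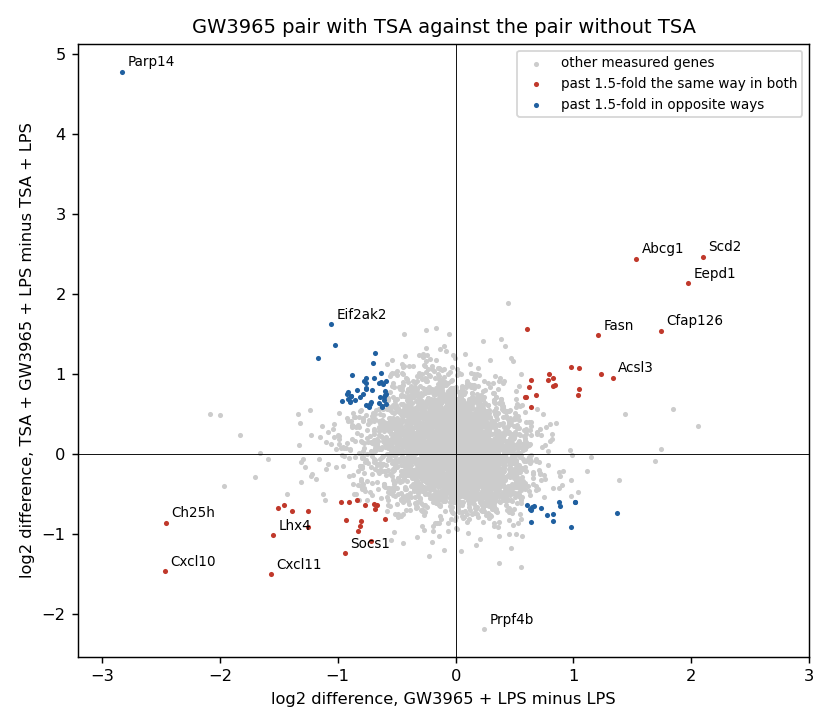
The log2 difference of TSA + GW3965 + LPS minus TSA + LPS (vertical axis) is plotted against that of GW3965 + LPS minus LPS (horizontal axis) for the 4425 genes measured in both pairs, with 1 point per gene. Genes past 1.5-fold the same way in both are red (23 higher and 23 lower) and those past it in opposite ways are blue (45 higher with TSA and lower without it, 16 the reverse).

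The 4425 genes measured in both pairs were counted by direction. At 1.5-fold, 23 genes were higher in both and 23 lower in both, while 45 were higher with TSA and lower without it and 16 lower with TSA and higher without it. With TSA, 11.0% of all genes measured in that pair were higher and 5.79% lower. Without TSA, 2.80% of the genes measured in both were higher and 6.46% lower. The overlap that these shares alone would give was not computed, so the counts are not read as many or few. Across genes, which are not independent replicates, the differences of both pairs had a Pearson coefficient of -0.13 and a Spearman coefficient of -0.19. Of 75 genes at least 2-fold higher in the pair with TSA, 8 (10.7%) were at least 1.5-fold higher without it, against 2.80% of all genes measured in both, and 7 (9.33%) at least 1.5-fold lower, against 6.46%. Of 23 genes at least 2-fold lower in the pair with TSA, 5 (21.7%) were at least 1.5-fold lower without it, against 6.46% of all genes, and 0 at least 1.5-fold higher.

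Chaperones and genes of the unfolded protein response, which cells use when misfolded protein builds up in the endoplasmic reticulum, were higher in the pair with TSA. Of 26 measured members, 13 were at least 1.5-fold higher in TSA + GW3965 + LPS than in TSA + LPS (11.0% of all measured genes were). Only 1 was at least 1.5-fold lower (5.79%), and the median log2 difference was 0.60. In the pair without TSA 4 of 25 were at least 1.5-fold higher (2.83% of all measured genes were), and the median was 0.07. In limma 0 of 26 members passed for the mean of both pairs or for the dependence on TSA, with 7 at an unadjusted p under 0.05 for the mean.

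Hspa5, the main chaperone of the endoplasmic reticulum, had 17.9 in TSA + GW3965 + LPS, against 6.73 in TSA + LPS, and 25.1 in GW3965 + LPS, against 21.4 in LPS. Herpud1, a part of the machinery that degrades misfolded protein, had 1.07 in TSA + GW3965 + LPS, against 0.348 in TSA + LPS, and 0.933 in GW3965 + LPS, against 0.660 in LPS. For both genes TSA + LPS was the lowest of the 4 LPS-treated arrays. The transcription factor Ddit3 differed alike in both pairs, with 13.2 in TSA + GW3965 + LPS, against 6.26 in TSA + LPS, and 25.1 in GW3965 + LPS, against 12.1 in LPS. Asns, the asparagine synthetase, did too, with 18.7 against 9.41 in the pair with TSA and 34.5 against 14.7 in the pair without it, agonist first. Canx, a lectin chaperone, was 1.99-fold higher on its brighter probe, and its second probe differed by 0.20 on the log2 scale. Hspb1, a small cytosolic heat shock protein, was the 1 member at least 1.5-fold lower, with a log2 difference of -0.63 in the pair with TSA and -0.39 in the pair without it.

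Lysosomal and phagocytosis genes were also higher in the pair with TSA. Of 32 measured members, 9 were at least 1.5-fold higher in TSA + GW3965 + LPS (11.0% of all measured genes were) and 0 at least 1.5-fold lower (5.79%). The median log2 difference was 0.36, against -0.08 in the pair without TSA. In that pair 0 of 32 were at least 1.5-fold higher (2.83% of all measured genes were). Man2b1, the lysosomal alpha-mannosidase, had 27.3 in TSA + GW3965 + LPS, against 9.68 in TSA + LPS, and between 27.1 and 46.2 on the other 4 arrays. The hexosaminidase subunit Hexa had 36.9 in TSA + GW3965 + LPS, against 20.9 in TSA + LPS, but 40.1 in GW3965 + LPS, against 52.1 in LPS. The protease cathepsin Z (Ctsz) had 234 in TSA + GW3965 + LPS, against 130 in TSA + LPS, but 320 in GW3965 + LPS, against 395 in LPS. In limma 0 of 34 fitted members passed, with 1 at an unadjusted p under 0.05. Of the 10 macrophage markers 5 lay above 0 and 5 below in the pair with TSA, with a median of -0.02. The widest apart was the lineage transcription factor Spi1, with 24.7 in TSA + GW3965 + LPS, against 50.5 in TSA + LPS, and 31.4 in GW3965 + LPS, against 34.6 in LPS.

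**Figure D4:**
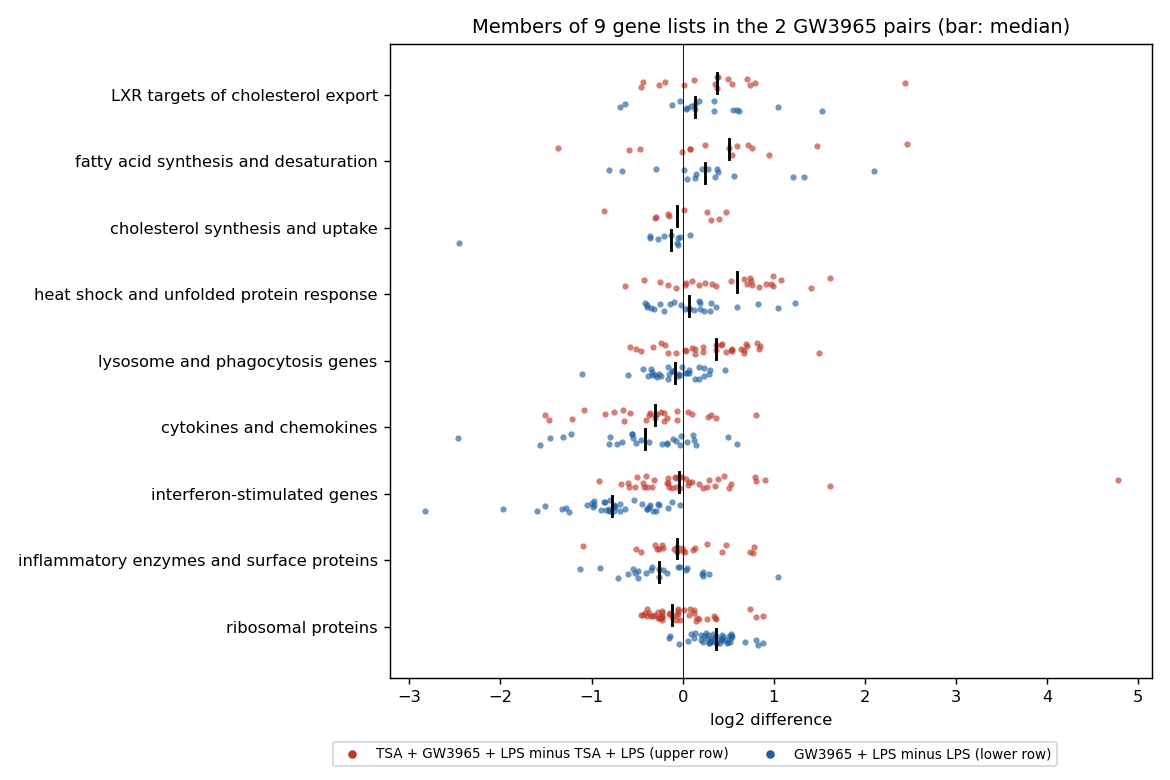
Log2 differences of the measured members of 9 gene lists are plotted for TSA + GW3965 + LPS minus TSA + LPS (upper row of each list, red) and GW3965 + LPS minus LPS (lower row, blue), with 1 point per gene and a bar at the median. The medians of the pair with TSA lie highest for the heat shock and unfolded protein response list (0.60) and lowest for cytokines and chemokines (-0.31), and in the pair without TSA the interferon-stimulated genes lie lowest (-0.78).

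Genes induced by LPS were next read as a set. By the LPS and No treatment arrays, which are not part of the pair, LPS induced 669 genes by 2-fold or more, and 630 of them were measured in the pair with TSA. Of these, 11 (1.75%) were at least 2-fold lower in TSA + GW3965 + LPS than in TSA + LPS, against 0.577% of all measured genes, and 17 (2.70%) at least 2-fold higher, against 1.75%. The median log2 difference of the set was 0.12, against 0.04 over all measured genes. The 11 lower genes included Cxcl11, Cxcl10, Cxcl9, Ccl17, Socs1, Nos2, Lhx4 and Acp5, the tartrate-resistant acid phosphatase, which had 142 in TSA + GW3965 + LPS, against 310.1 in TSA + LPS, and 189 in GW3965 + LPS, against 258 in LPS. The 17 higher genes included Parp14, Eif2ak2, Hspa5 and the class I histocompatibility gene H2-Q7, which had 8.39 in TSA + GW3965 + LPS, against 3.59 in TSA + LPS, but 13.3 in GW3965 + LPS, against 17.9 in LPS.

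Genes that were lower with TSA in cells without LPS stood higher with the agonist in the pair with TSA and lower in the pair without it. On the TSA and No treatment arrays, 222 genes were at least 2-fold lower with TSA, of which 179 were measured in the pair with TSA. Of these, 45 (25.1%) were at least 1.5-fold higher in TSA + GW3965 + LPS than in TSA + LPS, against 11.0% of all measured genes. Another 3 (1.68%) were at least 1.5-fold lower, against 5.79%. In all, 146 lay above 0 and 33 below, with a median of 0.38. In the pair without TSA the same choice ran the other way. Of 201 measured genes 50 (24.9%) were at least 1.5-fold lower in GW3965 + LPS than in LPS, against 7.18% of all measured genes. Another 3 (1.49%) were at least 1.5-fold higher, against 2.83%, and the median was -0.38. These sets carry no test over samples, since each comparison has 1 array per side, and the difference between the pairs was not tested.

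The 330 genes at least 2-fold higher with TSA in cells without LPS lay near the background. Of 301 measured in the pair with TSA, 30 (9.97%) were at least 1.5-fold higher in TSA + GW3965 + LPS and 14 (4.65%) lower, against 11.0% and 5.79% of all measured genes, with a median of 0.04. Their median in the pair without TSA was 0.02 over 247 measured genes.

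**Figure D5:**
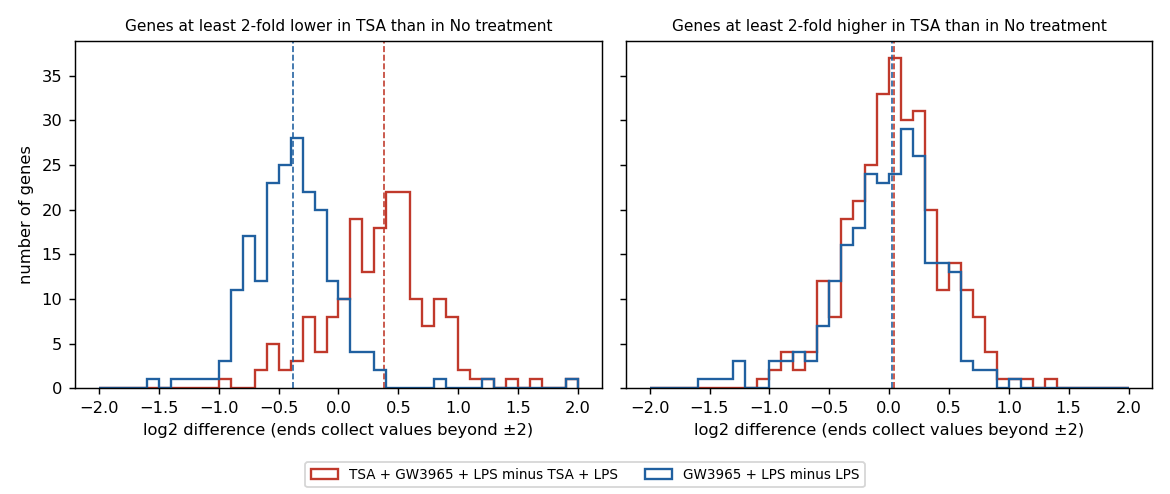
Histograms show the log2 differences of genes at least 2-fold lower (left) or higher (right) in TSA than in No treatment, for TSA + GW3965 + LPS minus TSA + LPS (red) and GW3965 + LPS minus LPS (blue); dashed lines mark the medians and the end bins collect values beyond the axis. The TSA-lowered genes have medians of 0.38 with TSA and -0.38 without it, and the TSA-raised genes of 0.04 and 0.02.

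Among the widest differences in the pair, some had 1 array apart from the other 5. Cacna2d1, an auxiliary subunit of calcium channels, had 3.77 in TSA + GW3965 + LPS and between 0.220 and 0.316 on the other 5 arrays. The transcript 1700008O03Rik had 5.25 in TSA + LPS, was under the floor in TSA + GW3965 + LPS and had at most 0.910 on the other 4 arrays. Coil, the Cajal body protein coilin, had 3.97 in TSA + GW3965 + LPS, against 1.36 in TSA + LPS, and between 1.02 and 1.21 elsewhere. Others did not have this pattern. Prpf4b, a kinase of the splicing machinery, had 1.72 in TSA + GW3965 + LPS, against 7.88 in TSA + LPS, and between 2.62 and 5.27 elsewhere. Both arrays of the pair thus lay outside the other 4 for Prpf4b. The muscle-atrophy ubiquitin ligase Fbxo32 had 4.50 in TSA + GW3965 + LPS, against 1.21 in TSA + LPS, with 15.9 in TSA and 9.16 in No treatment. Idh1, the cytosolic isocitrate dehydrogenase that supplies NADPH, had 3.13 in TSA + GW3965 + LPS, against 1.06 in TSA + LPS, and 3.78 in GW3965 + LPS, against 2.48 in LPS.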

How the data were processed

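RNA of 6 macrophage samples was labelled with biotin and read on 1 single-colour array each, per the labels' protocols. The deposited values are intensity values on a linear scale, scaled between arrays by the authors so that array medians nearly agree; the scaling method is not given in the sources used here. Of 10076 probes, 8983 had 1 symbol, 1 had several and 1092 had none in the platform annotation, and 8975 matched RefSeq, which left 8841 genes; of several probes the one with the highest mean was used. Values were floored at each array's 25th percentile and log2-transformed. A gene was measured where the brighter array reached its median.

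Counts past 2-fold describe single arrays. limma 3.58.1 (R 4.3.3; lmFit, eBayes with trend, two-sided, Benjamini-Hochberg over 5080 genes at or above the median on at least 1 array) gave the GW3965 mean over both pairs with LPS and TSA as additive terms. A second fit added a GW3965 by TSA term; its coefficient is not the plain difference of both pairs, since the fit has no LPS by TSA term and takes the TSA effect as the mean with and without LPS. It has 1 residual degree of freedom and an infinite prior, so its p-values use a spread pooled over genes. With 1 array per group, the p-values set a coefficient against a spread that no replicate gave. That spread came from the departure from the fitted model and from a prior pooled over genes. The prior of the first fit had 16.9 degrees of freedom beside 2 residual ones. Fits with 1 array left out, or with an LPS by TSA term, had an infinite prior or, without the TSA + LPS array, one of 203. Nothing says whether samples were separate cultures or animals. The model was also run on simulated data built from additive LPS and TSA effects with independent noise. Those data hold no dependence of treatments on each other, so they cannot show how the model behaves where the additive form fails.

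The 31 gene lists (837 symbols, 634 on the array, 4 through a synonym), the members and the comparisons were chosen with earlier results of these data known. Genes were named by rule: the 15 highest and 15 lowest in the pair, the 10 highest and 10 lowest in both pairs, those with the smallest adjusted p in limma (10 per direction for the mean, 5 for the GW3965 by TSA term), in each list the 4 members with the widest differences, plus 28 fixed genes, of which 22 were analysed here; Il1a and Hspb1 were named after their values were seen. Alternatives covered scaling, floor, level filter, probes, thresholds, prior, model and arrays left out. The number of arrays limits the precision.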

Additional observations from a re-analysis of the deposited data

Results flagged for a closer look

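In 3 genes the GW3965 effect differed with TSA by the GW3965 by TSA term of limma, which called 3 of 5080 genes (0.0591%), with 141 at an unadjusted p under 0.05. Parp14 had a coefficient of 5.76 on the log2 scale (adjusted p = 2.49e-18 in limma), Cacna2d1 of 3.58 (adjusted p = 0.00229 in limma) and 1700008O03Rik of -4.74 (adjusted p = 6.11e-08 in limma). The plain gaps between both pairs, with TSA minus without, were 7.60, 3.83 and -6.80 in the same order of genes. The fit has 1 residual degree of freedom and a prior with infinite degrees of freedom. Its p-values thus use a spread pooled over genes and not the residual of the gene itself, so they are no gene-level evidence. In Parp14 and Cacna2d1 the TSA + LPS array was under the floor, in 1700008O03Rik the TSA + GW3965 + LPS array. With a robust prior 1 gene was called, and neither Parp14 nor Cacna2d1 was.

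Eif2ak2 was past 2-fold in opposite ways in both pairs, by 1.62 on the log2 scale in TSA + GW3965 + LPS minus TSA + LPS and by -1.05 in GW3965 + LPS minus LPS. The GW3965 by TSA term did not pass for it (coefficient 1.40, adjusted p = 0.999 in limma), and the plain opposition of both pairs was not tested.

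Among the 1092 probes with no gene symbol, which no comparison above uses, 536 were measured in the pair and 8 (1.49%) were at least 2-fold apart, 4 higher and 4 lower in TSA + GW3965 + LPS than in TSA + LPS. The share among measured genes was 2.33%.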

How the results depend on the processing

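No paired analysis was possible because each group has 1 array and no replicate numbers to share. The counts of 82 higher and 27 lower genes in the pair were 63 and 32 under quantile normalization and 63 and 30 under cyclic loess. With no level filter 76 genes were lower and the median of all genes in the pair was -0.17. Without that filter, genes under the floor on both arrays are counted too. Each of them takes the log2 ratio of the 2 floors (0.216 in TSA + GW3965 + LPS and 0.245 in TSA + LPS), which is -0.18. That value is set by the floors and is no difference in the gene. The limma mean effect over both pairs called 0 genes up and 0 down with the floor at the median (all 4 called genes at an adjusted p of 0.557), 12 and 8 with no level filter, 11 and 7 with an LPS by TSA term, and 0 down with only genes above the median on every array, where Cxcl10 was not fitted. Leaving out each array in turn gave 2 to 39 risen and 3 to 39 fallen genes, the extremes without the LPS array (39 risen, 16 fallen) and without the TSA + LPS array (16 risen, 39 fallen); the fits left 1 residual degree of freedom and assume that the remaining arrays vary alike. The estimates of the 4 called genes kept their direction in all alternatives, and over arrays left out ran from 1.61 to 2.36 for Abcg1, 1.89 to 2.67 for Scd2, 1.94 to 2.16 for Eepd1 and -2.48 to -1.46 for Cxcl10. The GW3965 by TSA term called 45 genes with the floor at the median, 0 with only genes above the median on every array, and 1 with a robust prior. At 1.5-fold the pair had 517 higher and 271 lower genes, LPS-induced genes 15.9% higher and 6.19% lower, TSA-raised genes 9.97% higher and 4.65% lower, and TSA-lowered genes 25.1% higher. At 3-fold the pair had 10 higher and 2 lower genes, and at 2-fold in both pairs 6 and 3 remained. TSA-raised genes were 0% lower past 2-fold under cyclic loess, and interferon-stimulated genes 0% higher past 2-fold among genes above the median on every array. The LXR repeat was in 0.0152% of windows with 0 mismatches and in 54.2% with 2 mismatches per half-site. Dbp, a gene below the median of both arrays, changed sign to 0.0055 with the floor at the median. Under that setting both of its values are raised to the array medians (0.986 in TSA + GW3965 + LPS and 0.982 in TSA + LPS). The 0.0055 is thus the log2 ratio of these medians and no difference in Dbp. Except for the values set by the floors, and where an alternative fits fewer arrays or genes, the cause was not tested.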

Other observations

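Of 43 measured ribosomal protein genes, 28 lay below 0 in TSA + GW3965 + LPS minus TSA + LPS (median log2 difference -0.12), as did 2178 of all 4682 measured genes. Of the 43, 0 were at least 1.5-fold lower and 3 at least 1.5-fold higher (Rpl13a, Rpl14 and Rpl3), against 5.79% and 11.0% of all measured genes. Without TSA, 40 of 43 measured members lay above 0 in GW3965 + LPS minus LPS (median 0.37). None of them passed in limma for the mean of both pairs (0 of 43, with 2 at an unadjusted p under 0.05), and the difference between the pairs was not tested. Of 9 measured genes of the ABC family, 4 were at least 1.5-fold higher in TSA + GW3965 + LPS than in TSA + LPS (11.0% of all measured genes were). The 4 were Abcg1, Abcg2, Abcc1 and Abce1, and the median of the 9 was 0.48. Not all members of this list are transporters of lipids or drugs. Without TSA 1 of 8 was at least 1.5-fold higher and 2 lower, against 2.83% and 7.18% of all measured genes, with a median of -0.18. The drug and urate transporter Abcg2 had 2.86 in TSA + GW3965 + LPS, against 1.36 in TSA + LPS, and 0.938 in GW3965 + LPS, against 0.875 in LPS.

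Single genes of other lists differed in the pair with TSA and not in the same way without it. The scavenger receptor Cd36 had 33.2 in TSA + GW3965 + LPS, against 17.2 in TSA + LPS, and differed by -0.26 on the log2 scale in GW3965 + LPS minus LPS. The deacetylase gene Hdac2 had 6.37 in TSA + GW3965 + LPS, against 3.25 in TSA + LPS, and 5.40 in GW3965 + LPS, against 5.93 in LPS. The Toll-like receptor adaptor Myd88 had 12.7 in TSA + GW3965 + LPS, against 6.62 in TSA + LPS, and 14.1 in GW3965 + LPS, against 22.8 in LPS. In each of the 3 genes TSA + LPS was the lowest of the 4 LPS-treated arrays. None of the 3 passed either limma test.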
